A study of Homo sapiens with 4 samples.

Results

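The genes examined were the 9 listed members of the β-catenin destruction complex, APC, AXIN1, AMER1, CSNK1A1, GSK3A, GSK3B, CTNNB1, BTRC and FBXW11. They were found by their symbols among the 33538 genes of the count matrices, and each symbol matched 1 gene. UMIs (distinct molecules of a gene in a cell) were summed over the filtered cells of each library, and levels are given as CPM, the UMIs of a gene for every 1000000 UMIs summed.

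The libraries are single-cell RNA-seq of HCEC 1CT cells, non-transformed epithelial cells of the human colon made immortal by TERT and CDK4. The cells had received either a single hairpin against APC (shAPC) or a scrambled hairpin (shScr), both from a virus selected with puromycin, and were harvested at day 3 or day 7 after transduction. All 4 groups share the immortalising genes, the selection and a medium with EGF, insulin, hydrocortisone and 2% FBS, and each holds 1 library. Values given for all 4 libraries follow 1 order, with day 3 first and shScr before shAPC within a day. No difference below therefore has a replicate check, no p-value is given, and the 95% intervals cover counting error only.

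The destruction complex keeps the level of β-catenin low in a cell without a Wnt signal. AXIN1 and APC are scaffolds that hold β-catenin (CTNNB1) beside casein kinase 1α (CSNK1A1), which phosphorylates it first, and glycogen synthase kinase 3 (GSK3A and GSK3B), which phosphorylates it next. The F-box proteins β-TrCP1 (BTRC) and β-TrCP2 (FBXW11) then bind the phosphorylated site and pass β-catenin to the proteasome, and AMER1 ties the complex to the plasma membrane. In the colon, loss of APC is a common early step of tumour growth. These are steps of proteins, whereas the values below are levels of transcripts.

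The stretch of CTNNB1 on which these enzymes meet is shown because it joins the roles of the members. It lies in exon 3, on the plus strand of chromosome 3 (GRCh38, chr3:41224606-41224647), and codes for residues 32 to 45 of the 781 residues of β-catenin. In the line below, the capitals mark the codons of serine 33, serine 37, threonine 41 and serine 45 in that order. CSNK1A1 acts on serine 45, GSK3 on the other 3 sites, and β-TrCP binds around serine 33 and serine 37.
CTNNB1: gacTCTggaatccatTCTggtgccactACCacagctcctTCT

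After filtering, 788 to 2600 cells and 28451455 to 39797418 UMIs per library were left, with a median of 1330 UMIs per cell in shScr day 7 against 21029.5 to 49685.5 in the others. The limits on genes, UMIs and mitochondrial UMIs together left 48.7% of the shAPC day 7 barcodes and 71.2% to 75.9% of the others. Of barcodes within the other limits, the mitochondrial limit removed 346, 245, 1052 and 1551 in library order. The libraries of day 3 had 23 barcodes in common and those of day 7 had 25, against 2 to 7 for libraries of different days, and the ratios of APC and FBXW11 without these barcodes are given in the closing section. Of 7 epithelial markers, CDX2 and KRT20 were at 0 in every library, EPCAM had 0 to 2 UMIs, and the list summed to 14.8 to 26.6 CPM, nearly all of it KRT8 and KRT18, while 5 mesenchymal markers (VIM, FN1, COL1A1, CDH2 and ZEB1) summed to 8056 to 10460 CPM. Of 4 immune markers, CD3E was at 0 in every library, PTPRC had at most 1 UMI and LYZ at most 2, while CD68, which codes for a lysosomal protein, had 542 to 1035 UMIs and made up nearly all of the list's 17.4 to 29.7 CPM. Of 3 endothelial markers, CDH5 was at 0 in every library and the list summed to at most 5 UMIs. A list of 10 interferon-response genes moved with the hairpin, at 842 CPM in shScr and 3879 CPM in shAPC at day 3, and at 975 and 456 CPM at day 7. Its part in the results below was not tested.

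Apart from APC itself, the members that differed most between shAPC and shScr at day 3 were the F-box genes FBXW11 and BTRC, both lower in shAPC. At day 7 they were FBXW11 and CTNNB1, again lower in shAPC. The scaffolds AXIN1 and AMER1 and the 3 kinases stayed within 1.5-fold of shScr at both days once the shift of all genes was taken out. That shift was largest at day 3, where the median log2 ratio of shAPC to shScr over 11177 genes of at least 2 CPM was 0.33. It became -0.051 with TMM and -0.034 with median-of-ratios scaling, so ratios relative to the all-gene median are given beside the plain CPM ratios. At day 7 the median was -0.027.

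**Figure D1:**
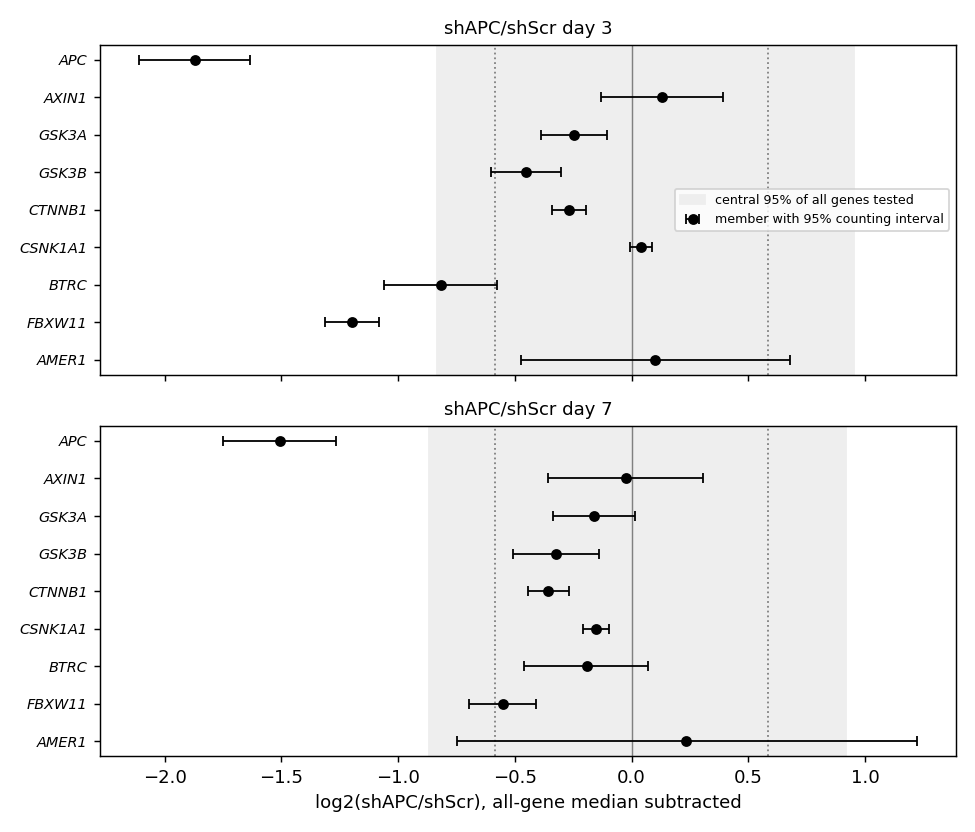
Log2 ratio of shAPC to shScr for each member at day 3 (top) and day 7 (bottom), with the all-gene median subtracted and 95% counting intervals. Grey marks the central 95% of the 11177 genes tested and dotted lines mark 1.5-fold, so that APC (-1.87) and FBXW11 (-1.20) lie left of the grey band at day 3, and APC alone (-1.51) at day 7.

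Of the 9 members, 8 had a mean of at least 2 CPM, and AMER1, at 1.05 CPM, is left out of the counts. At day 3, 3 of 8 members (APC, BTRC and FBXW11) were at least 1.5-fold lower in shAPC relative to all genes, or 37.5%, against 6.57% of all genes tested. None of the 8 was 1.5-fold higher, against 7.69% of all genes. On plain CPM, without the all-gene median taken out, APC and FBXW11 were past the fold, with 1.76% of all genes lower and 24.1% higher. At day 7 only APC was past this fold among the 8, or 12.5%, against 6.93% of all genes lower and 7.22% higher, and FBXW11, at -0.55, was just short of the 1.5-fold and past it with TMM scaling. The median over all 9 members was -0.27 relative to all genes at day 3 and -0.19 at day 7, where the same median over all genes tested is 0 by construction.

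APC, the target of the hairpin, was checked in every library first. It lies on chromosome 5 (112707518 to 112846239, plus strand, GRCh38), had 639 and 597 UMIs in shScr at day 3 and day 7, and had 193 and 188 UMIs in shAPC. Its level was 16.1 CPM (95% interval 14.8 to 17.4) in shScr day 3 and 19.1 CPM (17.6 to 20.7) in shScr day 7. In shAPC it was 5.52 CPM (4.77 to 6.36) at day 3 and 6.61 CPM (5.70 to 7.62) at day 7. Both shAPC libraries thus lay below both shScr libraries, and no interval of one overlapped one of the other. Of the control level, 34.4% was left at day 3 and 34.6% at day 7. Relative to all genes, APC was at -1.87 (-2.11 to -1.63) on the log2 scale at day 3 and at -1.51 (-1.75 to -1.27) at day 7, and these differed by 0.36 (0.032 to 0.69), whereas the plain ratios differed by 0.0071.

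**Figure D2:**
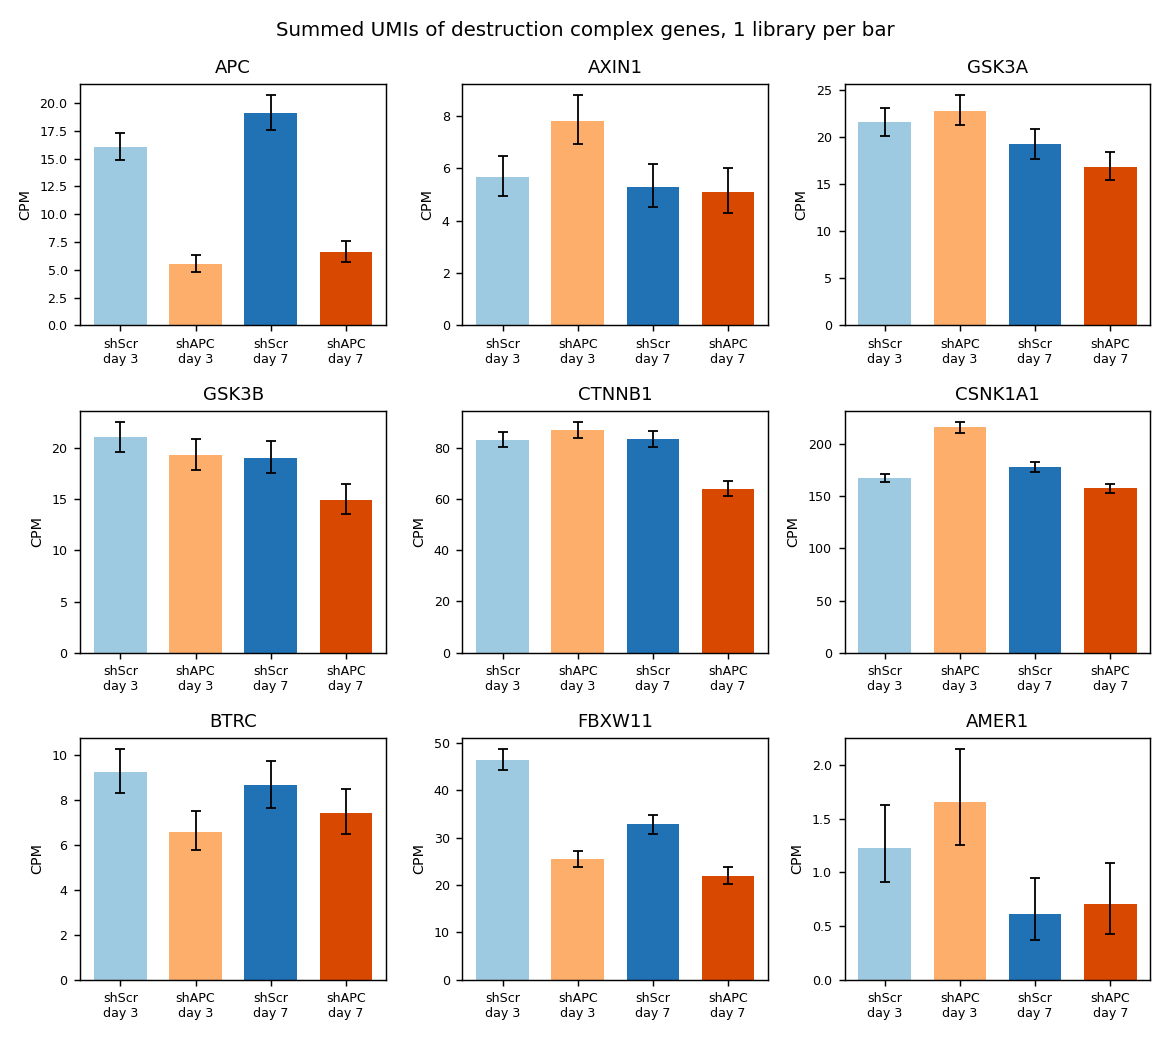
CPM of the 9 members in the 4 libraries, 1 bar per library with its exact Poisson 95% interval and each panel on its own axis from 0. APC is at 5.52 and 6.61 CPM in the shAPC libraries and FBXW11 at 25.4 and 22.0 CPM, while the other panels vary less or have wide intervals.

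AXIN1, the scaffold on which the kinases and β-catenin meet, differed in 1 library. It had 226 UMIs in shScr day 3 and 273 in shAPC day 3, or 5.68 CPM (4.96 to 6.47) and 7.81 CPM (6.91 to 8.80). The day 7 libraries held 165 UMIs in shScr and 145 in shAPC, or 5.28 CPM (4.51 to 6.15) and 5.10 CPM (4.30 to 5.997). Only shAPC day 3 stood apart from the other libraries. Its plain log2 ratio to shScr, 0.46 (0.20 to 0.72), was 0.13 relative to all genes with an interval that included 0 (-0.13 to 0.39), and at day 7 the plain ratio was -0.052 (-0.38 to 0.28). AMER1, the membrane anchor of the complex, which lies on the X chromosome, had 49, 58, 19 and 20 UMIs in the 4 libraries, or 0.608 to 1.66 CPM. Its plain log2 ratio to shScr, 0.43 (-0.14 to 1.01) at day 3, was 0.21 (-0.77 to 1.19) at day 7, so no difference with the hairpin was detectable at this depth.

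Among the kinases, CSNK1A1 primes β-catenin for GSK3. It had 6660 UMIs in shScr day 3, 7553 in shAPC day 3, 5574 in shScr day 7 and 4483 in shAPC day 7, or 167, 216, 178 and 158 CPM in library order. The highest and the lowest level were both in shAPC, at day 3 and day 7. At day 3 the plain log2 ratio of 0.37 (0.32 to 0.42) became 0.040 (-0.0079 to 0.088) relative to all genes and -0.011 with TMM, so its direction turned with the scaling. At day 7 it was -0.18 (-0.24 to -0.12), or -0.15 relative to all genes. CSNK1A1L, a near-identical retrocopy, could share reads with it, so these values are uncertain to that extent.

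The paired kinases GSK3A and GSK3B were close to each other in every library. GSK3A had 21.6, 22.8, 19.2 and 16.9 CPM in the 4 libraries, and GSK3B had 21.1, 19.3, 19.1 and 15.0 CPM. UMIs are tags of the 3′ end, 1 per molecule, so they need no division by length, although capture can differ between genes. GSK3A made up 50.6% (48.2 to 53.0) of the UMIs of the pair in shScr day 3 and 54.1% (51.5 to 56.7) in shAPC day 3, and 50.2% (47.3 to 53.0) and 53.0% (49.7 to 56.3) at day 7. The intervals of shAPC and shScr overlapped at both days. Relative to all genes GSK3B was lower in shAPC at both days, at -0.45 (-0.60 to -0.30) and -0.32 (-0.51 to -0.14), whereas its plain day 3 ratio of -0.12 (-0.27 to 0.026) included 0. For GSK3A the relative values were -0.25 (-0.39 to -0.11) and -0.16 (-0.34 to 0.015). Its plain day 3 ratio was 0.081 (-0.060 to 0.22), so its direction at day 3 turned with the scaling, and its plain day 7 ratio of -0.19 became 0.38 when CPM was averaged over cells.

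CTNNB1, the transcript of the substrate, was level in 3 of the 4 libraries. It had 3308 UMIs in shScr day 3, 3032 in shAPC day 3 and 2606 in shScr day 7, or 83.1 CPM (80.3 to 86.0), 86.8 CPM (83.7 to 89.9) and 83.4 CPM (80.3 to 86.7), and these intervals overlapped. In shAPC day 7 it had 1820 UMIs, or 64.0 CPM (61.1 to 67.0), which lay below the other 3. The day 7 ratio was -0.38 (-0.47 to -0.30), or 76.7% of shScr, and ranged from -0.41 to -0.23 over 10 other settings. At day 3 the plain ratio was 0.062 (-0.0097 to 0.13) and the relative ratio -0.27 (-0.34 to -0.20), a direction that turned with the scaling. Protein levels of β-catenin were not measured here.

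Set against CTNNB1 within the same library, the other members can be compared without any scaling between libraries. APC had 19.3 UMIs per 100 CTNNB1 UMIs (17.7 to 21.0) in shScr day 3 and 6.37 (5.47 to 7.36) in shAPC day 3, and 22.9 (20.9 to 25.0) and 10.3 (8.84 to 12.01) at day 7. GSK3A stayed between 23.0 and 26.4 and GSK3B between 22.3 and 25.3 in all 4 libraries. CSNK1A1 was at 201 (193 to 210) and 249 (239 to 260) per 100 in shScr and shAPC at day 3, and at 214 (204 to 224) and 246 (233 to 260) at day 7, higher in shAPC both times, although at day 7 CTNNB1 itself was lower in shAPC (64.0 against 83.4 CPM) and so was CSNK1A1 in CPM (-0.18 on the log2 scale). For AXIN1 the values were 6.83 (5.94 to 7.82) and 9.004 (7.93 to 10.2) at day 3 and 6.33 (5.38 to 7.41) and 7.97 (6.68 to 9.44) at day 7, with intervals that lay apart at day 3 and overlapped at day 7. FBXW11 was at 55.9 (52.8 to 59.2) in shScr and 29.3 (27.2 to 31.6) in shAPC at day 3. At day 7 FBXW11 was at 39.3 (36.6 to 42.3) and 34.3 (31.3 to 37.6), and these intervals overlapped. BTRC was lower in shAPC at day 3, at 11.2 (9.99 to 12.4) and 7.62 (6.64 to 8.71). At day 7 BTRC was higher in shAPC per 100 CTNNB1 UMIs, at 10.4 (9.14 to 11.8) and 11.6 (10.1 to 13.4), with overlapping intervals. In CPM, BTRC was lower in shAPC at day 7 (7.45 against 8.68), and so was FBXW11 (22.0 against 32.8). The lower CTNNB1 of shAPC day 7 thus enters the day 7 values of every member.

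**Figure D3:**
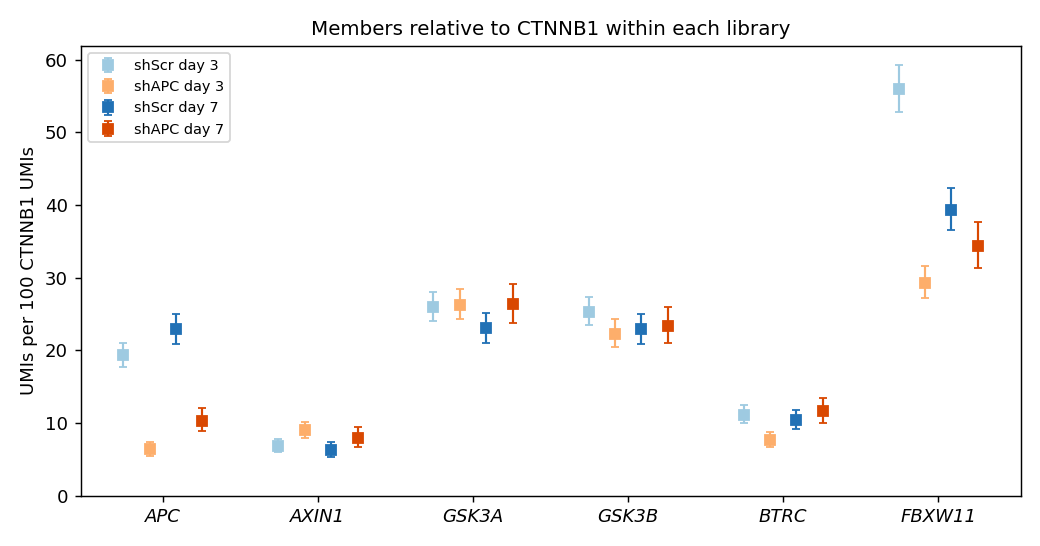
UMIs of 6 members per 100 CTNNB1 UMIs in each library, with exact 95% counting intervals. APC is lower in both shAPC libraries (6.37 and 10.3 against 19.3 and 22.9), and GSK3A and GSK3B lie between 22.3 and 26.4 throughout. FBXW11 is highest in shScr day 3 (55.9), and its intervals overlap at day 7 (39.3 in shScr and 34.3 in shAPC). At day 7 CTNNB1 itself is lower in shAPC (64.0 against 83.4 CPM).

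FBXW11, which codes for β-TrCP2, differed more between shAPC and shScr, relative to all genes, than any member but APC at both days. It lies on chromosome 5 (171861549 to 172006873, minus strand, GRCh38) and had 1849 UMIs in shScr day 3, 889 in shAPC day 3, 1025 in shScr day 7 and 625 in shAPC day 7. The levels were 46.5 CPM (44.4 to 48.6), 25.4 CPM (23.8 to 27.2), 32.8 CPM (30.8 to 34.9) and 22.0 CPM (20.3 to 23.8). Both shAPC libraries lay below both shScr libraries, and shScr day 3 lay well above the rest. In plain log2 terms shAPC was at -0.87 (-0.99 to -0.75) against shScr at day 3, or 54.8% of it, and at -0.58 (-0.72 to -0.43) at day 7, or 66.9%. Over 10 other settings it stayed between -1.249 and -0.80 at day 3 and between -0.74 and -0.52 at day 7. Relative to all genes the difference was larger at day 3 than at day 7, at -1.20 and -0.55, which differed by 0.65 (0.46 to 0.83).

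BTRC, the gene of β-TrCP1 and the closest relative of FBXW11, was much the scarcer of the pair. It had 369 UMIs in shScr day 3 and 231 in shAPC day 3, or 9.27 CPM (8.35 to 10.3) and 6.61 CPM (5.79 to 7.52), and those intervals lay apart. The day 7 libraries held 271 and 212 UMIs, or 8.68 CPM (7.67 to 9.77) and 7.45 CPM (6.48 to 8.52), and the intervals overlapped. In plain log2 terms it was at -0.49 (-0.73 to -0.25) at day 3 and at -0.22 (-0.49 to 0.045) at day 7, where averaging CPM over cells gave 0.51, and relative to all genes at -0.82 and -0.19. FBXW11 made up 83.4% (81.7 to 84.9) of the UMIs of the pair in shScr day 3 and 79.4% (76.9 to 81.7) in shAPC day 3, and 79.1% (76.8 to 81.3) and 74.7% (71.6 to 77.6) at day 7. The pair together summed to 55.7, 32.1, 41.5 and 29.4 CPM in library order.

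The share of cells with a UMI was compared at equal depth, since the cells of shScr day 7 were shallow. Each cell was thinned to 10000 UMIs, which kept 765, 576, 919 and 927 cells of the 4 libraries. APC was then seen in 14.8% (12.3 to 17.5) of shScr and 4.34% (2.83 to 6.34) of shAPC cells at day 3, and in 17.8% (15.4 to 20.5) and 7.44% (5.84 to 9.33) at day 7. FBXW11 was seen in 35.6% (32.2 to 39.1) and 20.0% (16.8 to 23.5) at day 3, and in 30.3% (27.3 to 33.3) and 19.1% (16.6 to 21.8) at day 7. Without thinning the APC shares were 35.8%, 18.3%, 16.3% and 11.1% and those of FBXW11 55.3%, 50.5%, 23.5% and 28.3%, in library order. Thinned shares were lower in shAPC, with intervals apart, for 3 members at day 3 (APC, BTRC and FBXW11) and for 5 at day 7 (APC, GSK3B, CTNNB1, CSNK1A1 and FBXW11), and higher for CSNK1A1 at day 3, at 78.6% and 86.8%. The share of all genes with intervals apart was not computed, and the shift of all genes was not taken out, so these counts describe the members only. For BTRC and CSNK1A1 at day 3 the intervals overlapped when cells were thinned to 2000 or to 20000 UMIs. The cultures hold a single cell line, so no cell type that lacks these genes was at hand to give the share that free RNA alone would leave.

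**Figure D4:**
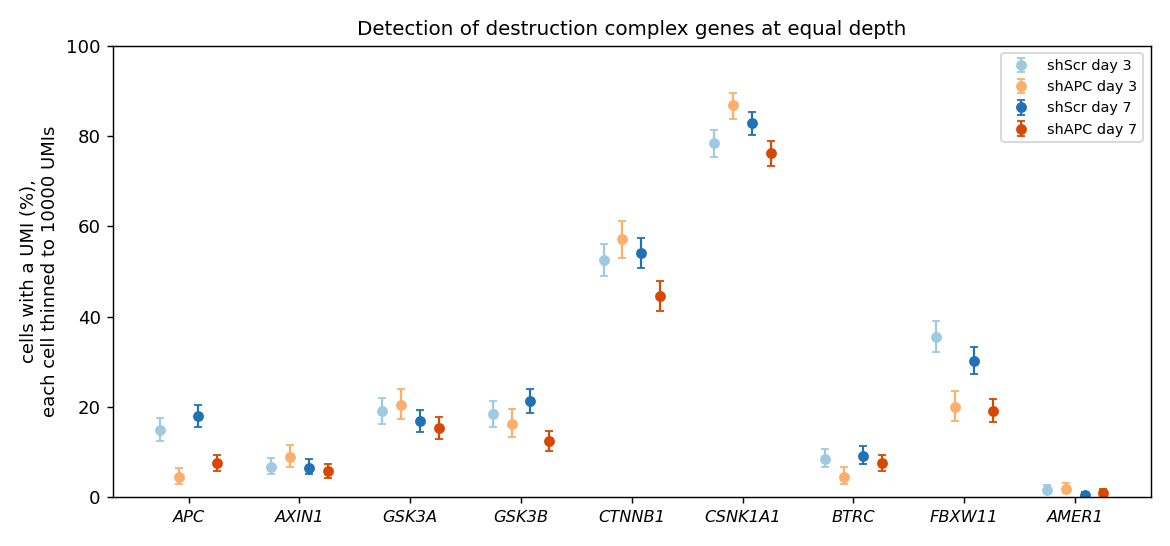
Percentage of cells with at least 1 UMI of each member after thinning every cell to 10000 UMIs, with exact binomial 95% intervals, 1 point per library. APC is seen in 14.8% and 17.8% of shScr cells against 4.34% and 7.44% of shAPC cells, and FBXW11 in 35.6% and 30.3% against 20.0% and 19.1%.

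How evenly the UMIs of a member were spread over the cells was described by setting the unthinned share beside the share that 1 common rate per UMI would give in cells of these depths. For APC the common rate gives 37.4%, 20.5%, 17.2% and 11.5% of cells in the 4 libraries, which is 1.56, 2.27, 0.819 and 0.383 percentage points above the share seen. The most APC UMIs in any 1 cell were 6, 8, 8 and 3 in library order. For FBXW11 at day 3 the common rate gives 61.1% of shScr and 56.4% of shAPC cells, 5.78 and 5.94 points above the share seen, and at day 7 the gaps were 1.22 and 2.41 points. A gap in points depends on the share itself, so these gaps do not rank the genes by evenness.

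Depth per cell differed between libraries, so the ratios were also taken within classes of cells of similar depth. In cells of 20000 to under 50000 UMIs, APC was at 20.8 CPM (18.0 to 23.9) in 277 shScr cells and 6.25 CPM (4.50 to 8.45) in 163 shAPC cells at day 3. The day 7 values in this class were 20.1 CPM (18.3 to 22.0) in 728 shScr and 6.95 CPM (5.91 to 8.11) in 746 shAPC cells. In log2 terms shAPC was at -1.73 and -1.53 of shScr. FBXW11 in the same class had ratios of -1.02 (-1.29 to -0.76) and -0.60 (-0.76 to -0.44). In cells of at least 50000 UMIs FBXW11 stood at -0.84 (-0.97 to -0.71) on day 3, -0.40 (-0.94 to 0.11) on day 7, and in cells of 5000 to under 20000 it was -2.19 (-4.13 to -0.73) and -0.77 (-1.28 to -0.27). In the shallowest cells, under 5000 UMIs, it was -1.84 (-7.37 to 1.1997) and -1.30 (-2.84 to -0.038). All 8 FBXW11 ratios were thus below 0, and the intervals of 2 of them, at day 7 in the deepest and at day 3 in the shallowest cells, included 0. In day 3 cells of 5000 to under 20000 UMIs, APC had 20 UMIs in 120 shScr cells and 0 in 62 shAPC cells. The counting interval of this log2 ratio had no lower end and an upper end of -1.06. Setting shAPC to a floor of 3 counts gives 2.82-fold lower, which leaves out the counting error of the shScr UMIs. In cells of 500 to under 5000 UMIs the APC counts were too small to place the ratio, at 9 and 2 UMIs at day 3 (-1.43, -4.68 to 0.84) and 18 and 5 at day 7 (-0.56, -2.35 to 0.92). FBXW11 itself varied with depth within a library, from 11.9 CPM (4.36 to 25.9) in shScr day 3 cells of 500 to under 5000 UMIs to 47.5 CPM (45.0 to 50.2) in those of at least 50000, with 30.7 and 47.4 CPM in the classes between.

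From day 3 to day 7, none of the 8 members of at least 2 CPM moved by 1.5-fold relative to all genes within shScr, against 3.75% of all genes higher and 4.98% lower. Within shAPC the count was again 0 of 8, against 7.12% higher and 8.47% lower, or, on plain CPM, 1 of 8 (AXIN1, lower) against 1.74% higher and 24.5% lower. The largest change among the 8 within shScr was that of FBXW11, which was lower at day 7 by a plain log2 ratio of -0.50 (-0.61 to -0.39), or -0.54 relative to all genes. Within shAPC, APC was at 0.58 (0.28 to 0.88) and BTRC at 0.50 (0.22 to 0.77) relative to all genes, while their plain ratios were 0.26 (-0.039 to 0.56) and 0.17 (-0.10 to 0.45). FBXW11 within shAPC was at -0.21 (-0.36 to -0.063) on the plain scale and 0.11 (-0.039 to 0.26) relative to all genes, a direction that turned with the scaling. AMER1, below the minimum level, was lower at day 7 in both, at -1.02 (-1.86 to -0.23) in shScr and -1.24 (-2.05 to -0.48) in shAPC. These comparisons share libraries with those of the hairpin and are not independent of them.

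Genes that build, feed or oppose the complex were then described from 7 lists of 49 genes, 42 of which had at least 2 CPM. At day 3, 1 of the 42 was at least 1.5-fold higher in shAPC relative to all genes (SIAH1), against 7.69% of all genes, and 1 lower (CDH2), against 6.57%. At day 7 likewise 1 was higher (FRAT2), against 7.22%, and 1 lower (CDH2), against 6.93%. The median over the 42 was -0.078 at day 3 and -0.034 at day 7. SIAH1, FRAT2 and, for the change between days, JUP, TCF7L2 and PPP2R5D were named because they make up these small counts, after their values were seen.

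The shared core of the SCF ubiquitin ligase, into which the F-box proteins plug, had 0 of 5 genes past 1.5-fold at either day. SKP1, the adaptor that holds the F-box, had relative log2 ratios of -0.13 and -0.17 at day 3 and day 7, RBX1, the ring subunit, -0.39 and -0.46, and NEDD8, which activates the cullin, -0.31 and -0.35. None of the 5 other casein kinase 1 genes passed the fold, with CSNK1E at 0.29 and 0.42 and CSNK1D at 0.12 and -0.054, and CSNK1G3 at -0.21 and -0.028. Nor did any of 10 subunits of PP2A, the phosphatase that works against the kinases of the complex, where PPP2R1A was at -0.047 and 0.089, PPP2CA at 0.33 and -0.11, and PPP2CB at -0.28 and -0.43.

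Among 7 genes that turn over AXIN or β-catenin, SIAH1, a ubiquitin ligase, was higher at day 3 and not past the fold at day 7. It was at 6.21 CPM in shScr day 3, 13.3 in shAPC day 3, 8.16 in shScr day 7 and 9.07 in shAPC day 7, with relative ratios of 0.77 (0.55 to 1.00) and 0.18 (-0.077 to 0.43). TNKS2, a tankyrase that marks AXIN for removal, was at 0.10 and 0.40, the ubiquitin ligase TRIP12 at -0.13 and 0.17, and the deubiquitinase USP34 at -0.29 and -0.037. Of 8 inhibitors of the complex, 7 had at least 2 CPM, and FRAT2, which binds GSK3, was past the fold at day 7 with 67 UMIs in shScr and 103 in shAPC (0.78, 0.32 to 1.248). DVL1 and DVL3, the Dishevelled genes with the most UMIs, were at -0.13 and -0.28 and at -0.24 and -0.0090, and GSKIP, a GSK3-binding protein, at -0.12 and -0.27.

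Among 10 partners of β-catenin, CDH2 (N-cadherin), which anchors β-catenin at the membrane, was the only one of the 42 genes past the fold in the same direction at both days. It had 306 UMIs in shScr day 3, 135 in shAPC day 3, 200 in shScr day 7 and 104 in shAPC day 7, or 7.69, 3.86, 6.404 and 3.66 CPM. Relative to all genes it was at -1.32 (-1.63 to -1.03) and -0.78 (-1.14 to -0.43). CDH1 (E-cadherin) had 1 UMI in shAPC day 7 and 0 in the other libraries. CTNNA1, which links cadherins to actin, was at -0.091 and -0.17, CTNND1 (p120) at -0.44 and -0.18, and BCL9L, a coactivator, at 0.090 and 0.40. From day 3 to day 7 within shAPC, TCF7L2, a partner of β-catenin on DNA, was higher by 0.83 (0.63 to 1.04) and JUP (plakoglobin) was lower, at -0.98 (-1.46 to -0.51), relative to all genes. That is 1 of the 42 past the fold in each direction, against 7.12% of all genes higher and 8.47% lower. Within shScr, 2 of the 42 were lower at day 7, BCL9L at -0.86 and the PP2A subunit PPP2R5D at -0.59, against 4.98% of all genes. None of the 42 was higher, against 3.75%.

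None of the 4 paralogs of the scaffolds had a mean of 2 CPM over the libraries. APC2 had 5 to 13 UMIs per library, and AMER2 and AMER3 had none in any library. AXIN2, a paralog of AXIN1 that is itself switched on by β-catenin, had 14 and 4 UMIs in shScr and 57 and 117 in shAPC at day 3 and day 7, plain log2 ratios of 2.21 (1.35 to 3.17) and 5.00 (3.61 to 6.90). It thus reached 4.11 CPM in shAPC day 7 and was at 0.128 CPM in shScr day 7.

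The genes whose levels over the 4 libraries lay closest to the pattern of APC were HMGN1, TOMM22, SCP2, TUSC3 and SUCO, out of 7007 genes of at least 10 CPM. Likeness was the largest difference from APC in any library of log2 CPM less the gene's own mean, and it was 0.14 for HMGN1 (a nucleosome-binding protein with many processed pseudogenes, so that its counts are uncertain), 0.15 for TOMM22 (an import receptor of mitochondria), 0.21 for SCP2 (a sterol carrier), 0.23 for TUSC3 and 0.23 for SUCO. HMGN1 was at 326, 128, 370 and 150 CPM in library order. TOMM22 was at 115, 35.8, 124 and 38.4 CPM. With 4 libraries this ranking is a description only.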

How the data were processed

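Single-cell libraries were prepared by the authors with a 10x Genomics 3′ kit (v2 per the labels, V3 in the methods). The authors aligned reads to hg38 and deposited raw UMI counts per gene and called barcode. The file headers name Cell Ranger 3.0.2 in the shScr and 3.0.0 in the shAPC files, so software version and hairpin cannot be told apart. Annotation release and cell calling settings are not given in the sources used here. The study's ComBat correction and imputation were not applied, since with 1 library per group the former cannot separate library from hairpin.

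Barcodes with at least 200 genes, 500 UMIs and under 5% mitochondrial UMIs were kept (Python 3.11.15, scipy 1.17.1). No doublet caller was run and no doublets were removed. UMIs were summed per library and scaled by total UMIs. CPM have exact Poisson, ratios exact conditional binomial and shares exact binomial (Clopper-Pearson) 95% intervals. The interval of a difference between the 2 days uses a normal approximation on log counts. Over all genes a count of 0 was set to 1 UMI. A call was a log2 CPM ratio, less its median over genes of at least 2 CPM (mean of 4 libraries), of at least 1.5-fold. TMM factors came from edgeR 4.0.16 and median-of-ratios factors from DESeq2 1.42.0, neither used for a test. The script that makes the calls was tested on simulated counts with known fold changes. Named genes are the 9 members, those of the 7 related lists past 1.5-fold in 1 direction at both days, the 3 most abundant of a list, and the 5 most like APC. Members and lists were chosen with earlier results of these data known. Positions are from GENCODE 44. Protein and hairpin sequences were not used here.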

Additional observations from a re-analysis of the deposited data

Results flagged for a closer look

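CSNK1A1 moved in opposite directions from day 3 to day 7 in the 2 arms, with counting intervals off 0 in both. Relative to all genes its log2 ratio of day 7 to day 3 was 0.054 (0.0025 to 0.11) in shScr and -0.13 (-0.19 to -0.080) in shAPC. Its relative ratios of shAPC to shScr at day 3 and day 7 differed by -0.19 (-0.27 to -0.12), an interval of counting error only. With 1 library per arm the difference between the arms was not tested against replicates, and all these values are small.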

How the results depend on the processing

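Each group holds 1 library, so no replicate could be left out. The labels give no replicate numbers to block on, and a fit with hairpin and day as additive terms, which would take the days as replicates of the hairpin, was not run. Of 101 alternative values for the main results, 74 stayed within the counting interval or within 1.5 times the count, and 27 did not. The cause was not tested. The APC ratio at day 3 was -1.92 with TMM, -1.90 with median-of-ratios scaling and -1.19 when CPM was averaged over cells, which gave -1.21 at day 7. Of single members whose counting interval lay off 0, GSK3A turned to 0.38 at day 7 (CPM averaged over cells), CSNK1A1 to -0.011 at day 3 (TMM), and FBXW11 within shAPC to 0.093 (TMM) and 0.094 (median-of-ratios). Others, with intervals that included 0, also changed sign in at least 1 of 10 settings: AXIN1 (-0.74 to 0.016) and BTRC (-0.25 to 0.51) at day 7, GSK3A (-0.30 to 0.14) and CTNNB1 (-0.32 to 0.12) at day 3, AXIN1 (-0.17 to 0.68) and CTNNB1 (-0.057 to 0.098) between days in shScr, and APC (-0.021 to 0.56) between days in shAPC. Of the counts of members past 1.5-fold, that of day 3 (3) was 1 at a minimum of 20 CPM, which only leaves fewer genes. That of day 7 (1) was 2 with all barcodes, with a 10% mitochondrial limit, without the 5% of cells with the most UMIs, with TMM and with median-of-ratios scaling, FBXW11 joining APC each time, 2 with CPM averaged over cells (APC and AXIN1), 4 at a looser fold (a log2 of 0.32), and 0 at 20 CPM. The count between days in shScr (0) was 1 with CPM averaged over cells, at the looser fold and at a minimum of 1 CPM. In shAPC (0) it was 1 with all barcodes, a 10% limit, cells of at least 2000 genes, cells of at least 10000 UMIs, CPM averaged over cells, no centring (where 24.5% of all genes were lower and 1.74% higher) and a minimum of 1 CPM, and 2 at the looser fold. Except for the ratio without centring, the shares of all genes at these settings are not given here. A looser fold also lets through more of all genes, so these counts describe the members only. Members with a lower thinned share in shAPC numbered 1 without thinning at day 3 (3 thinned) and 3 at 2000 UMIs and 1 without thinning at day 7 (5 thinned). No share of all genes was computed for these either. Without barcodes found in more than 1 library, chosen after seeing the data like the limit of 10000 UMIs, the ratio of APC was -1.54 at day 3 and -1.52 at day 7, that of FBXW11 -0.88 and -0.58, and the counts past the fold were 3, 1, 0 and 0 as before.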
